A study of Mus musculus with 6 samples.

Results

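Described here are 9 genes for the uptake of amino acids and the use of arginine, out of 55538 features counted in single cells of the mouse peritoneum: the transporter genes Slc7a5, Slc7a11, Slc3a2, Slc7a2, Slc7a1, Slc38a2 and Slc1a5 and the arginine enzymes Arg1 and Nos2. They were chosen by name with their measured levels in these cells already known, so their levels in B cells, T/NK cells and macrophages, and in macrophages divided by Trib3 and Ddit3 or by Gata6, are given as a description with no test. Resident peritoneal cells of adult C57BL/6 mice, MerTK +/+ or MerTK -/- (MerKD, deficient in the apoptotic cell receptor Mertk and backcrossed to C57BL/6J), were plated, rinsed of cells that did not adhere, and given either a change of medium or apoptotic Jurkat cells, a human T cell line killed by UV light, for 2 h or 6 h. Each of the 6 libraries pooled the cells of several mice of 1 genotype under 1 condition. The number at the end of each cell barcode, 1 to 6, was not matched to a genotype or a time. Thus no comparison between genotypes or times was made, and the pool and the range over library numbers mix both genotypes and all 3 conditions.

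The table held 40172124 unique molecular identifiers (UMIs, each a captured transcript end) in 7760 barcodes, 4234786 to 10287079 UMIs per library, and 7665 barcodes passed the filters on genes and mitochondrial counts. The same 28 barcode sequences occurred in 2 or more libraries and account for 56 barcodes. Every sample was labelled as peritoneal macrophages, but 2948 cells fell in the B cell gate (at least 4 UMIs of Cd79a and Cd79b), 514 in the T/NK gate (at least 2 of Cd3d, Cd3e and Nkg7) and 2773, or 36.2%, in the macrophage gate (at least 2 of Csf1r, Adgre1 and Fcer1g, few of the others). The 153 cells in both lymphocyte gates were left out, and 1277 met none. Of the markers not used for gating, all 8 of macrophages, all 8 of B cells and all 8 of T cells were found in at least 10% of the cells of their own gate, but only 1 of 6 NK cell markers was found in as many of the T/NK cells. Levels are CPM, a gene's UMIs per 1000000 UMIs of a gate, with exact Poisson 95% intervals in parentheses. Intervals cover counting error only, and the spread between libraries is wider.

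An SLC7 light chain reaches the plasma membrane as a pair with the heavy chain that Slc3a2 encodes (CD98hc). Slc7a5 (LAT1) pairs with it to exchange glutamine for leucine and other large neutral amino acids, and Slc7a11 (xCT) pairs with it to export glutamate and import cystine, the source of cysteine for glutathione. Slc7a1 and Slc7a2 carry arginine without a heavy chain, and in macrophages arginase 1 and the inducible nitric oxide synthase Nos2 compete for that arginine. When amino acids run short or proteins misfold, the kinases of the integrated stress response raise ATF4, which drives many transporter genes together with Trib3 and Ddit3 (CHOP).

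Slc7a11 (chromosome 3, 49892526 to 50443614, minus strand, GRCm38) was a gene of macrophages in these cells. It had 19264 UMIs in the macrophage gate, a level of 1398 CPM (1378–1418), and by library the lowest level was 710.3 CPM, the median 1131 CPM and the highest 2039 CPM. Libraries 4 and 5, both above 2000 CPM, stood apart from the other libraries, of which the highest had 1249 CPM. B cells had 25.1 CPM (22.9–27.5) and T/NK cells 112 CPM (97.3–129), and no library of either gate came near the lowest macrophage library. A Slc7a11 UMI was found in 89.1% of macrophages (87.9–90.2%), against 3.26% of B cells, at median depths of 4426 and 5416 UMIs per cell. At an equal depth of 1500 UMIs drawn from each cell, 73.5% of macrophages and 1.75% of B cells had one.

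The window around the start of Slc7a11 is shown because it holds the ATF4 and CHOP composite element, searched as TGATGNAAN on both strands, and holds it on each strand. RefSeq (GRCm38.p6) gives this 300-base window at chr3:50443564-50443863 on the minus strand, 250 bases before the start and 50 after it, with the matches in capitals:
Slc7a11: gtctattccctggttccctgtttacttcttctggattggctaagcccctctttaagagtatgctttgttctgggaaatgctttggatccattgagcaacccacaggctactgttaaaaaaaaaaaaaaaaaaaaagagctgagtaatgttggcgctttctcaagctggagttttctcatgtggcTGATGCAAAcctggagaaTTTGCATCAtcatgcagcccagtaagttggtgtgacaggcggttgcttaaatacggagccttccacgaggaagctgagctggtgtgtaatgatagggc
The first match lies 66 to 58 bases before the start and the second, on the opposite strand, 48 to 40 bases before it. The element was found in 1299 of 32851 such windows, or 3.95%. The core of the antioxidant response element, searched as TGACNNNGC, was found in 12.4% of windows and not in this one. A match of letters is not evidence of binding.

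Slc7a5 (chromosome 8, 121881150 to 121907694) did not separate macrophages from B cells. Its level was 56.5 CPM in macrophages (52.6–60.6), with a lowest library of 41.4 CPM, a median of 59.4 CPM and a highest of 73.9 CPM. B cells had 62.1 CPM (58.6–65.8), with libraries from 48.3 to 71.8 CPM that lie inside the macrophage range. The ratio of macrophages to B cells was 0.909 (0.829–0.996), above 1 in 2 of 6 libraries, 1.01 with TMM scaling and 1.56 with every cell thinned before gating, so no order is given. T/NK cells stood below both, at 19.8 CPM (13.9–27.4) and at 6.25 to 24.5 CPM by library, or 11.2 CPM (6.52–17.9) without the 29 cells of that gate that carried a UMI of the macrophage genes Csf1r or Adgre1.

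Slc3a2 (chromosome 19, 8706882 to 8723369), the shared heavy chain, had 477 CPM in macrophages (466–489), with libraries from 392 through a median of 438 to 594 CPM. B cells had 179 CPM (173–185) with libraries from 142 to 293 CPM, and T/NK cells 119.9 CPM (104–137) with no library above 199.7 CPM. Every macrophage library was above every B and T/NK library. The level in macrophages was 2.67-fold that of B cells (2.56–2.78) and 3.98-fold that of T/NK cells (3.48–4.58). The latter rests in part on 29 of 514 T/NK cells that carried Csf1r or Adgre1 and held 101 Slc3a2 UMIs against 117 in the other 485, without which T/NK cells had 77.0 CPM (63.7–92.3) and the ratio was 6.20. Because the heavy chain is shared, its partners can be set beside it within 1 gate: macrophages had 2.93 UMIs of Slc7a11 (2.85–3.01) and 0.118 of Slc7a5 (0.110–0.127) for each UMI of Slc3a2, whereas B cells had 0.140 (0.127–0.155) and 0.347 (0.324–0.371). In B cells Slc7a11 had 0.404 UMIs for each UMI of Slc7a5, and in macrophages 24.8, with 12.9 to 31.3 by library. UMIs count transcript ends, and capture may differ between transcripts, so these are ratios of counts to be compared between gates and not proportions of protein pairs.

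Among the carriers of arginine, Slc7a2 (CAT2, chromosome 8, 40862396 to 40922308) was high in macrophages and Slc7a1 (CAT1, chromosome 5, 148327410 to 148399904) was spread over all 3 gates. Slc7a2 had 724 CPM in macrophages (709.9–738), and its libraries ran from 323 through a median of 632 to 957 CPM. Library 1 was the highest and library 6 the lowest, a span of 2.96-fold. B cells had 17.8 CPM (15.9–19.8) and T/NK cells 120.4 CPM (105–137). Slc7a1 had 76.8 CPM in macrophages (72.2–81.6), with libraries from 42.7 through 77.3 to 104 CPM, against 61.5 CPM in B cells (58.0–65.2) and 34.6 CPM in T/NK cells (26.6–44.3). The library ranges of Slc7a1 in B cells, 43.5 to 119.7 CPM, and in T/NK cells, 12.5 to 66.6 CPM, both overlapped that of macrophages. For each UMI of Slc7a1, macrophages had 9.43 UMIs of Slc7a2 (8.85–10.1) and B cells 0.289 (0.255–0.327).

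The genes for glutamine and small neutral amino acids were not higher in macrophages than in B cells. Slc38a2 (SNAT2, chromosome 15, 96687392 to 96699730), a sodium-coupled carrier, had 68.4 CPM in macrophages (64.1–73.0), with libraries from 55.7 through 71.7 to 91.8 CPM. B cells had 79.3 CPM (75.3–83.5) and T/NK cells 56.1 CPM (45.7–68.1), and the library ranges of the 3 gates overlapped. Within each library Slc38a2 was nevertheless lower in macrophages than in B cells, at ratios of 0.732 to 0.961. The ratio of Slc38a2 in macrophages to T/NK cells was 1.22 (0.994–1.51), above 1 in 4 of 6 libraries. Slc1a5 (ASCT2, chromosome 7, 16781340 to 16798274), an exchanger of neutral amino acids that brings in glutamine, was lowest in macrophages at 37.2 CPM (34.1–40.6), with libraries from 25.3 through 41.7 to 68.7 CPM. B cells had 161 CPM (155–167), with libraries from 107 through 168 to 307 CPM, and none of these reached down to the macrophage range. T/NK cells had 81.9 CPM (69.3–96.2), and their lowest library, at 68.0 CPM, fell just under the highest macrophage library. Slc1a5 was 4.32-fold lower in macrophages than in B cells (3.93–4.75) and the other way round in no library. The highest level of Slc1a5 was in the 1277 cells of no gate, at 220.1 CPM (206–235).

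Arg1 (chromosome 10, 24915221 to 24927484), whose product splits arginine to ornithine and urea, had 28123 UMIs in macrophages, or 2041 CPM (2017–2065). The libraries ran from 1769 through 2069.9 to 2779 CPM, with library 3 the highest, a span of 1.57-fold and the narrowest after that of Slc3a2. B cells had 37.8 CPM (35.0–40.7) and T/NK cells 362 CPM (335–391), and no library of either, the highest being 506 CPM, came near a macrophage library. Nos2 (chromosome 11, 78920787 to 78960254) was all but undetected. It had 1 UMI in 2773 macrophages, which is 0.0726 CPM with an upper limit of 0.404 CPM, 1 UMI in B cells and 0 in T/NK cells, where a count of 0 allows up to 3 counts, or 1.65 CPM. Beyond single UMIs Nos2 was not detectable at this depth in any library. Arg2, the mitochondrial arginase and not one of the 9 genes, had 316 UMIs in macrophages, so that 89.0 UMIs of Arg1 (79.7–99.7) were found for each.

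**Figure D1:**
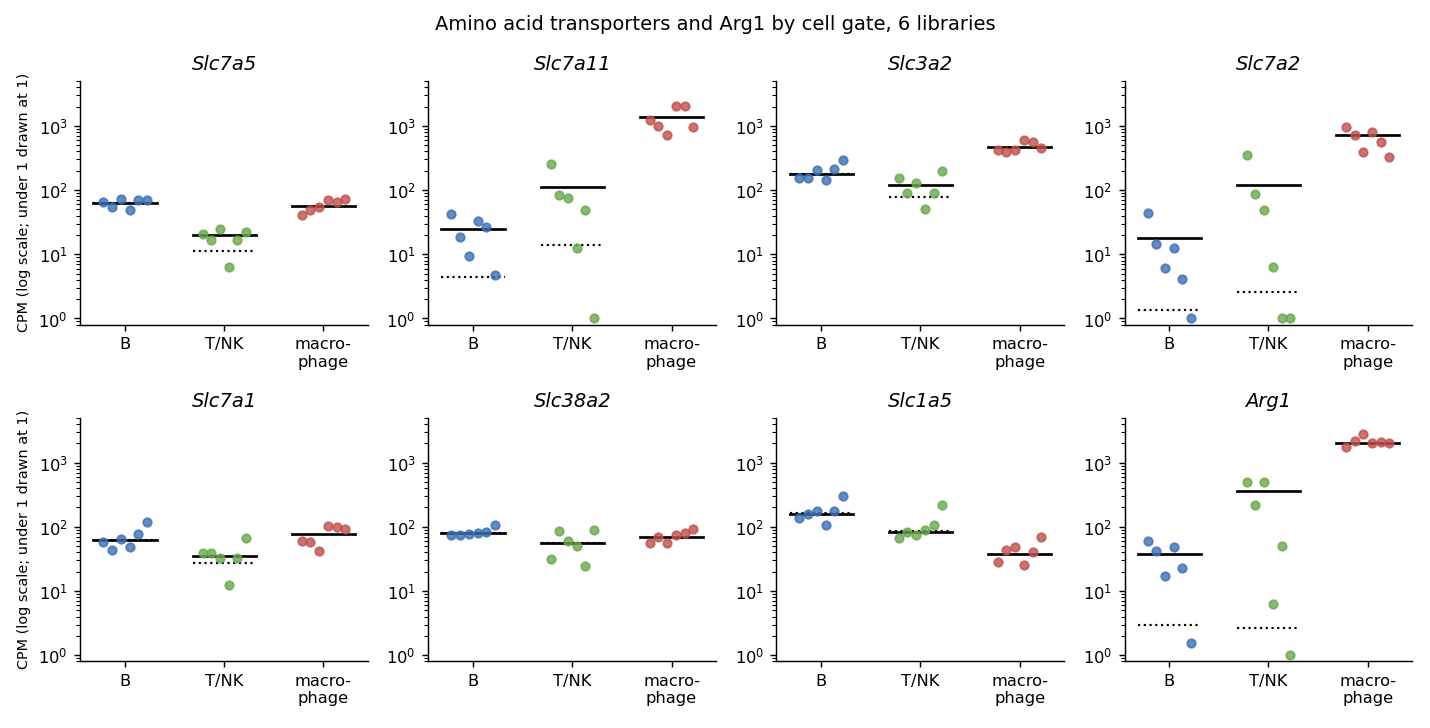
CPM on a log axis of the 8 genes above the count floor in B cells, T/NK cells and macrophages. Each point is 1 of 6 libraries, the solid line is the pool, and the dotted line is the pool of lymphocytes with no Csf1r and no Adgre1 UMI. Slc7a11, Slc7a2 and Arg1 are far higher in macrophages, Slc1a5 is lowest there, and the dotted lines of those first 3 genes lie between 1.37 and 13.8 CPM.

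Most of the Arg1, Slc7a2 and Slc7a11 counted in lymphocytes came from a few cells that also carried the macrophage genes Csf1r or Adgre1. Of 514 T/NK cells, 29 had such a UMI, at a median depth of 9794 UMIs against 2742 in the other 485, and those 29 held 655 of the 659 Arg1 UMIs of the gate. In the other 485 cells Arg1 was 2.63 CPM (0.717–6.74), Slc7a2 2.63 CPM (0.717–6.74) and Slc7a11 13.8 CPM (8.56–21.1). Likewise 117 of 2948 B cells held 647 of 698 Arg1 UMIs, at 8168 against 5296 UMIs per cell, and the other 2831 had 2.92 CPM of Arg1 (2.17–3.84), 1.37 CPM of Slc7a2 (0.880–2.04) and 4.40 CPM of Slc7a11 (3.48–5.50). Slc1a5, Slc38a2 and Slc7a1 in B cells did not depend on them, at 164, 79.6 and 61.4 CPM without these cells. By Scrublet score 27 barcodes of the B gate and 1 of the T/NK gate were called doublets. Without the called doublets Arg1 was 28.7 CPM in B cells and 343 CPM in T/NK cells. Whether the cells with Csf1r or Adgre1 were pairs of cells in 1 droplet was not tested.

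Of the 9 genes, 8 passed the filter of 5 CPM averaged over the gates compared, and Nos2 did not. Macrophages were at least 2-fold higher than B cells in 4 of them (Slc7a11, Arg1, Slc7a2 and Slc3a2), where 19.4% of 9389 features were, and at least 2-fold lower in 1 (Slc1a5), where 23.3% of features were. The ratios were 55.7 for Slc7a11 (50.8–61.2), 54.1 for Arg1 (50.2–58.4) and 40.7 for Slc7a2 (36.5–45.6), and against B cells with no Csf1r and Adgre1 they were 317, 699.7 and 527. Against T/NK cells 6 genes were at least 2-fold higher (20.2% of 9635 features) and 1 was at least 2-fold lower (26.1%). These ratios were 12.5 for Slc7a11, 6.01 for Slc7a2 and 5.63 for Arg1, or 101, 275 and 775 without the cells that carried Csf1r or Adgre1, followed by Slc3a2, Slc7a5 at 2.85 (2.04–4.10) and Slc7a1 at 2.22 (1.72–2.91), which without those cells were at 6.20, 5.05 and 2.85. Slc7a5 and Slc7a1 lost the 2-fold when cells in 2 gates were counted in each, at 1.20 and 1.82, and Slc7a1 also without library 4, at 1.84, and with at least 1000 genes per cell, at 1.94. Slc1a5 was 2.20-fold lower than in T/NK cells (1.82–2.65), and within 2-fold without library 4, at a ratio of 0.505, and with TMM scaling, at 0.605, while with cells in 2 gates counted in each the ratio was 0.276. Without library 1 the ratio of Slc7a2 to B cells was 68.5 and its ratio to T/NK cells 12.9, while that of Slc7a11 to T/NK cells was 22.5. With every cell thinned to 1500 UMIs before gating, macrophages had 5.85-fold the Slc3a2, 2.00-fold the Slc7a1 and 0.365-fold the Slc1a5 of B cells, and 8.65-fold the Slc7a5 and 6.33-fold the Slc3a2 of T/NK cells.

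The other genes of these pathways are given from lists with no member in them, beside the 19.4% of all features that were at least 2-fold higher in macrophages than in B cells and the 23.3% that were lower, and no list was tested. Of 33 other amino acid transporters 16 passed the filter against B cells, 9 of them at least 2-fold higher in macrophages and 5 at least 2-fold lower, with a median ratio of 2.43 against 0.900 over all features. The highest were Slc7a8 (LAT2, another light chain of Slc3a2) at 85.9 against 1.24 CPM, the aromatic amino acid carrier Slc16a10 at 50.4 against 2.60 CPM and the lysosomal peptide carrier Slc15a3 at 446 against 46.8 CPM. The lowest were Slc38a9, an arginine sensor of the lysosome, at 9.22 against 49.9 CPM, Slc7a7 at 14.7 against 35.4 CPM and Slc15a4 at 11.2 against 25.3 CPM. Of the cystine and glutathione genes 13 of 16 were at least 2-fold higher in macrophages and 0 at least 2-fold lower, with a median of 7.35, and the other 3 were Gpx4 at a ratio of 1.16, Keap1 at 1.12 and the glutamylcyclotransferase Ggct at 0.709 (0.584–0.858). Heme oxygenase Hmox1 had 2678 against 58.5 CPM, the glutathione reductase Gsr 265 against 8.38 CPM and the quinone reductase Nqo1 26.1 against 0.919 CPM. In arginine and polyamine metabolism, 6 of 17 were higher and 4 lower, with Gatm at 19.6 against 0.433 CPM and Arg2 at 22.9 against 0.541 CPM at the top and Odc1, which turns ornithine to putrescine, at 181 against 1137 CPM at the bottom. Of the genes of the amino acid response 7 of 33 were higher and 7 lower, shares near those of all features, with a median of 0.973. Gdf15, at 43.0 against 0.703 CPM, and the serine synthesis gene Phgdh, at 10.9 against 108 CPM, were at its ends. Of the genes by which mTORC1 senses amino acids 4 of 19 were higher, among them Fnip2 at 78.3 against 1.78 CPM, and 4 lower, among them Sesn3 at 8.13 against 52.9 CPM, again near the shares of all features.

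The macrophages were next divided by Trib3 and Ddit3. At least 1 UMI of either was found in 625 macrophages and none in 2148, at median depths of 5377 and 4196 UMIs. Slc38a2, Slc7a5 and Slc7a1 were higher in the former by at least 1.5-fold, a size that 2.08% of 8613 features reached, and no member was lower by 1.5-fold, as 8.27% of features were. The median ratio of the 8 genes was 1.27 and that of all features 0.925.

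Slc38a2 had 113 CPM in the cells with Trib3 or Ddit3 (102–124) and 52.5 CPM in those without (48.2–57.2), a ratio of 2.14 (1.88–2.44). The ratio lay between 1.91 and 2.40 in all 6 libraries. Slc7a5 had 90.7 against 44.1 CPM, a ratio of 2.05 (1.78–2.37) with libraries from 1.49 to 3.59. Slc7a1 had 109.6 against 65.0 CPM, a ratio of 1.69 (1.49–1.91) with libraries from 1.31 to 2.22. Slc3a2 was higher in each library too, but by less, at 577 against 442 CPM and a ratio of 1.31 (1.24–1.38), or 1.53 in macrophages of 3000 to 6000 UMIs. Slc7a11 had a ratio of 1.24 (1.20–1.28) and was above 1 in 5 of 6 libraries, and Slc7a2 had a ratio of 1.03 (0.989–1.08). Arg1 was lower in the cells with Trib3 or Ddit3 in all 6 libraries, at 1775 against 2137 CPM and a ratio of 0.831 (0.808–0.854). Its ratio was 0.907 in macrophages of 3000 to 6000 UMIs, 0.873 with TMM scaling and 0.762 thinned before gating. Slc1a5 was lower in the cells with Trib3 or Ddit3 in 5 of 6 libraries, at 30.4 against 39.7 CPM in those without. Thus the ratio of Slc7a5 to Slc3a2 counts was 0.157 in the former and 0.1000 in the latter, and that of Slc7a11 to Slc7a5 was 18.0 and 29.8.

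The levels also moved with the number of Trib3 and Ddit3 UMIs in a cell. From 0 through 1 and 2 to 3 to 4 or more, Slc7a5 had 44.1, 66.4, 115 and 174 CPM, Slc38a2 had 52.5, 95.7, 136 and 151 CPM, and Slc7a1 had 65.0, 90.4, 138 and 149 CPM. The last step of Slc38a2 and of Slc7a1 was within the counting intervals. Arg1 had 2137, 1869.8, 1620.4 and 1626 CPM. Slc7a2 stayed between 718 and 803 CPM. The 4 classes held 2148, 398, 173 and 54 cells, and in 1 library only 2 cells had 4 or more UMIs, so the last class is given for the pool alone.

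**Figure D2:**
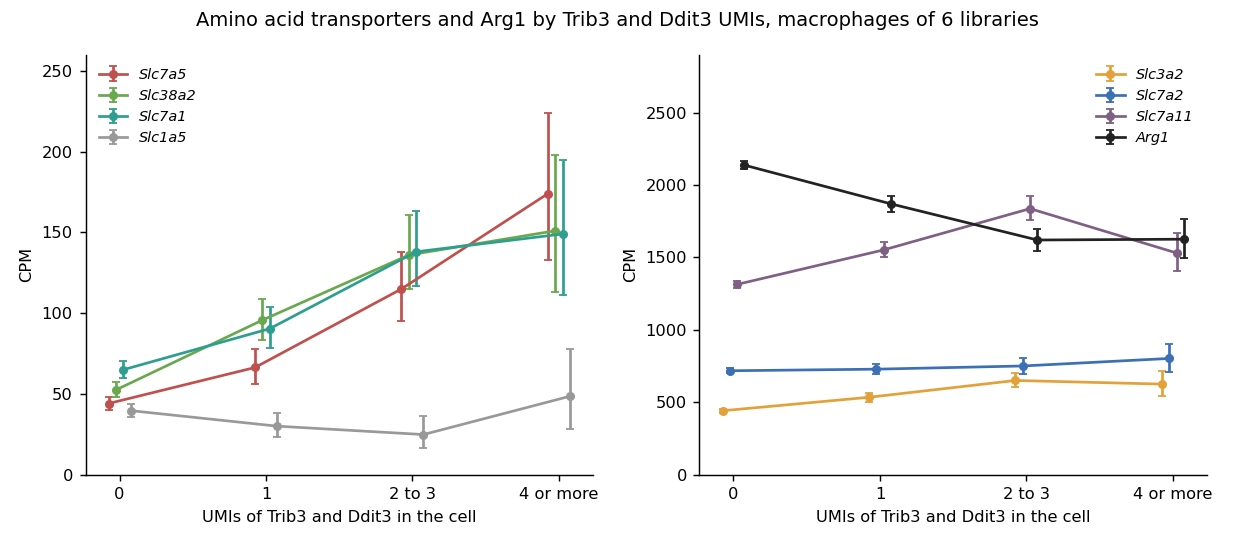
CPM of 8 genes (left, the genes of lower level; right, those of higher level) in macrophages with 0, 1, 2 to 3 or 4 or more UMIs of Trib3 and Ddit3, pooled over 6 libraries, with exact Poisson 95% intervals as bars. Slc7a5, Slc38a2 and Slc7a1 are higher in each class than in the one before it, Arg1 is lower in the first 3 classes in turn, and Slc7a2 is nearly level.

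For Slc38a2, Slc7a5 and Slc7a1 the same division gave like values with and without Gata6, the transcription factor of large peritoneal macrophages. Among macrophages with Gata6 the ratio was 2.00 for Slc38a2 (1.52–2.62), 1.92 for Slc7a5 (1.48–2.48) and 1.78 for Slc7a1 (1.41–2.25). Among those without it was 2.20 (1.90–2.56), 2.12 (1.77–2.52) and 1.65 (1.41–1.92). Arg1 was below 1 in both, at 0.777 (0.741–0.815) and 0.855 (0.826–0.884), with counting intervals that did not overlap. In B cells, 638 of which had a Trib3 or Ddit3 UMI at a median depth of 7667 UMIs against 4944, Slc7a5 had a ratio of 1.97 (1.75–2.22), Slc3a2 of 1.96 (1.83–2.10) and Slc7a1 of 1.87 (1.66–2.11), while Slc38a2 had 1.28 (1.14–1.42). The B cell ratio of Slc38a2 and the macrophage ratio of Slc3a2 were thus each the smaller of their pair. Their intervals did not overlap but cover counting error only, and the divided groups differed in depth in both cell types. The macrophage ratio of Slc3a2 was 1.53 in cells of 3000 to 6000 UMIs, and no such value is given for B cells. Whether the cell types differ was not tested. The T/NK gate held only 64 cells with either gene, and Slc3a2 there had a ratio of 2.29 (1.70–3.05). The 29 T/NK cells with Csf1r or Adgre1 were not set aside for this ratio. They held 101 Slc3a2 UMIs against 117 in the other 485, so it is not read as a trait of T/NK cells.

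Of 33 genes of the amino acid response that passed the filter, 8 were at least 1.5-fold higher in macrophages with Trib3 or Ddit3 and none was lower by as much, with a median of 1.37, where 2.08% of all features were higher and 8.27% lower. The highest were Chac1, which breaks down glutathione, at 27.9 against 4.74 CPM, the leucine sensor Sesn2 at 38.4 against 9.38 CPM and Herpud1, of protein degradation at the endoplasmic reticulum, at 358 against 111 CPM. The lowest were Mars at 11.0 against 11.1 CPM, Cebpb at 599 against 639.9 CPM and Psph at 5.21 against 6.91 CPM. Of the other amino acid transporters 0 of 16 were past 1.5-fold upward, a list too short to be read against 2.08%, and 2 downward, Slc38a9 at 6.03 against 10.4 CPM and Slc15a4 at 7.12 against 12.7 CPM. In the cystine and glutathione list 0 of 16 were past the fold upward and 1 downward, Gss at 26.3 against 45.1 CPM. In arginine and polyamine metabolism 1 of 18 was past it upward, Aldh18a1 at 13.2 against 8.39 CPM, and 2 downward, among them Gatm at 13.7 against 21.7 CPM. Of the mTORC1 sensing genes 1 of 19 was past it upward and 3 downward, with Depdc5 at 11.8 against 7.40 CPM and Rptor at 7.95 against 15.2 CPM at the ends.

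The windows of Slc38a2 and Slc7a1 are shown because these genes were among the 3 that went with Trib3 and Ddit3. Neither holds the composite element, and each holds 1 match to the antioxidant core, in capitals, which runs 27 to 19 bases before the start in Slc38a2 (chr15:96699679-96699978, minus strand) and 11 to 3 bases before it, on the opposite strand, in Slc7a1 (chr5:148399855-148400154, minus strand):
Slc38a2: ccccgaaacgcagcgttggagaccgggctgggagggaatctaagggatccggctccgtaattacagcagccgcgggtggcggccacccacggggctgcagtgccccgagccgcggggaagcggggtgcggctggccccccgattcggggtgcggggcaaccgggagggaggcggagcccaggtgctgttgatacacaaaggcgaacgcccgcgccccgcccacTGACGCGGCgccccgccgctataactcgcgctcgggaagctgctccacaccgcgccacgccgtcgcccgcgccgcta
Slc7a1: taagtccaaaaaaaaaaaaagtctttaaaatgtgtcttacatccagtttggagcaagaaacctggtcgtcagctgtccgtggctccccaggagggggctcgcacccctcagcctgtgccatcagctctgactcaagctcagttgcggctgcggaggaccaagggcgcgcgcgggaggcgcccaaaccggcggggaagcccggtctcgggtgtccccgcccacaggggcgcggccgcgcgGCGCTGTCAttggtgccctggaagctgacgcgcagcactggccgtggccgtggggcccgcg
RefSeq has another start for Slc7a1, with neither motif in its window, and Slc3a2 (chr19:8713848-8714147, minus strand) has neither. For comparison, the windows of Trib3, Asns and Chac1 each hold 1 composite element and that of Ddit3 holds none. Bases outside the windows were not searched, so a window without a match does not show that the gene lacks the element. Windows of Slc7a5, Slc7a2, Slc1a5, Arg1 and Nos2 are not printed.

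Gata6 divided the macrophages less. With Gata6 (657 cells, median 5542 UMIs) against without (2116 cells, 4134 UMIs), no gene was 1.5-fold higher, as 3.15% of 8660 features were, and 1 was 1.5-fold lower, as 7.22% were. That gene was Slc1a5, at 25.8 against 41.9 CPM, or 1.62-fold lower (1.31–2.04), and it was within 1.5-fold without library 3, in macrophages of 3000 to 6000 UMIs and, at 0.872, once macrophages with Ccr2, Irf4 or Fcrls were set aside. Arg1 was higher with Gata6 in all 6 libraries, at 2429 against 1885 CPM and a ratio of 1.29 (1.26–1.32). Slc7a2 was higher in 5 of 6, at 829 against 682 CPM and a ratio of 1.22. With macrophages carrying Ccr2, Irf4 or Fcrls set aside, these ratios were 1.16 for Arg1 and 1.06 for Slc7a2. In macrophages of 3000 to 6000 UMIs they were 1.15 and 1.14, and thinned before gating 1.34 and 1.14. Slc38a2 and Slc3a2 were lower with Gata6, at 56.6 against 73.2 CPM and 436 against 494 CPM, but thinned before gating both ratios were above 1, at 1.04 and 1.06. Ccr2, Irf4 or Fcrls was found in 3.81% of the cells with Gata6 and 18.9% of those without.

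Macrophages with a UMI of the inflammatory cytokines Tnf or Il6 (997 cells, median 5428 UMIs) differed from those without (1776 cells, 4022 UMIs) mainly in Slc1a5. No gene was 1.5-fold higher, as 2.23% of 8671 features were, and Slc1a5 alone was 1.5-fold lower, as 6.46% were. It had 24.9 against 46.2 CPM, was 1.86-fold lower (1.53–2.26) and lower in all 6 libraries, and without the macrophages carrying Ccr2, Irf4 or Fcrls, 9.23% of the cells with Tnf or Il6 and 18.8% of the others, its ratio was 0.551. Slc7a2 was higher with Tnf or Il6 in 6 of 6 libraries, by a ratio of 1.28 (1.23–1.34), and Slc7a11 likewise, by 1.09 (1.06–1.12). The Slc7a2 ratio was 1.14 without library 1, 1.42 without library 4 and 1.40 thinned before gating. It was 1.19 as the geometric mean of the within-library ratios, and also without the macrophages carrying Ccr2, Irf4 or Fcrls. Nos2 had 0 UMIs in the 997 cells with Tnf or Il6.

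The widest differences between macrophages lay between those with genes of small and of large peritoneal macrophages. Ccr2, Irf4 or Fcrls without Gata6 was found in 400 macrophages (median 4026 UMIs), and Gata6 without these in 632 (5516 UMIs). In the former, 6 of 8 small macrophage markers, these 3 included in the list, and 2 of 10 large macrophage markers were present in at least 10% of cells, and in the latter 2 and 8. Of the 8 genes, 1 was at least 1.5-fold higher in the former, as 22.4% of 8857 features were, and 4 were at least 1.5-fold lower, as 15.0% were, with a median ratio of 0.666 against 1.08 over all features.

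Slc7a2 had 231 CPM in the cells with small macrophage genes (209–254) and 836 CPM in those with Gata6 (807–866), 3.62-fold lower (3.27–4.02) and lower in all 6 libraries. Arg1 had 948 CPM (904–993) and 2436 CPM (2387–2486), 2.57-fold lower in the pool (2.44–2.71), with library ratios from 0.198 through a median of 0.256 to 0.616, so that most libraries showed a larger difference than the pool. Slc7a5 was 1.68-fold lower (1.28–2.22), though above 1 in 1 library and at 0.703 with splits at 2 UMIs. Slc7a11 was at the edge of the fold, 1.51-fold lower (1.43–1.60), and within it, at ratios of 0.678 to 0.707, without library 3, 4, 5 or 6. Slc7a1, just inside the fold at a ratio of 0.670, was past it without library 1, 2 or 6, at 0.551 to 0.658. With both groups set by 2 UMIs in place of 1 the ratios of Slc7a2 and Arg1 were 0.183 and 0.233, and thinned before gating, which left 174 and 202 cells, those of Slc7a2, Slc7a11 and Slc7a1 were 0.124, 0.427 and 0.271. Slc1a5 went the other way, at 103 against 24.1 CPM and a ratio of 4.28 (3.31–5.55), with 1.90 to 7.28 by library. These 400 cells were 14.4% of macrophages and held 37.2% of their Slc1a5 UMIs but 6.25% of their Arg1 and 4.29% of their Slc7a2 UMIs. Slc3a2 did not separate the groups, at 418 against 435 CPM (ratio 0.962, 0.882–1.05), nor did Slc38a2, at 64.7 against 57.7 CPM (ratio 1.12, 0.890–1.41), though thinned before gating both were past the fold downward, at 0.649 and 0.505, and Nos2 had no UMI in either. NK cell markers summed to 76.6 against 0.265 CPM, B cell markers to 82.5 against 9.79 CPM and eosinophil markers to 122 against 0.529 CPM, with Epx and Prg2 at 0 in both, and their part in these values was not tested.

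The other genes of these pathways are read against the 22.4% of all features that were higher in the cells with small macrophage genes and the 15.0% that were lower, and most of their shares lie near these. In arginine and polyamine metabolism 6 of 18 were higher in the cells with small macrophage genes and 4 lower: Sms, Odc1 and Smox of polyamine synthesis and turnover led, at 79.8 against 28.0, 272 against 129 and 231 against 124 CPM, and Arg2, at 2.70 against 25.9 CPM, came last. Of the other transporters 4 of 16 were higher, with Slc38a1 at 124 against 70.7 CPM, and 3 lower, with Slc38a6 at 7.01 against 36.3 CPM. Of the cystine and glutathione genes 3 of 16 were higher and 4 lower, with Gss at 66.9 against 20.1 CPM and Gsr at 139 against 306 CPM at the ends. In the amino acid response list 2 of 33 were higher and 4 lower, both below the shares of all features.

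**Figure D3:**
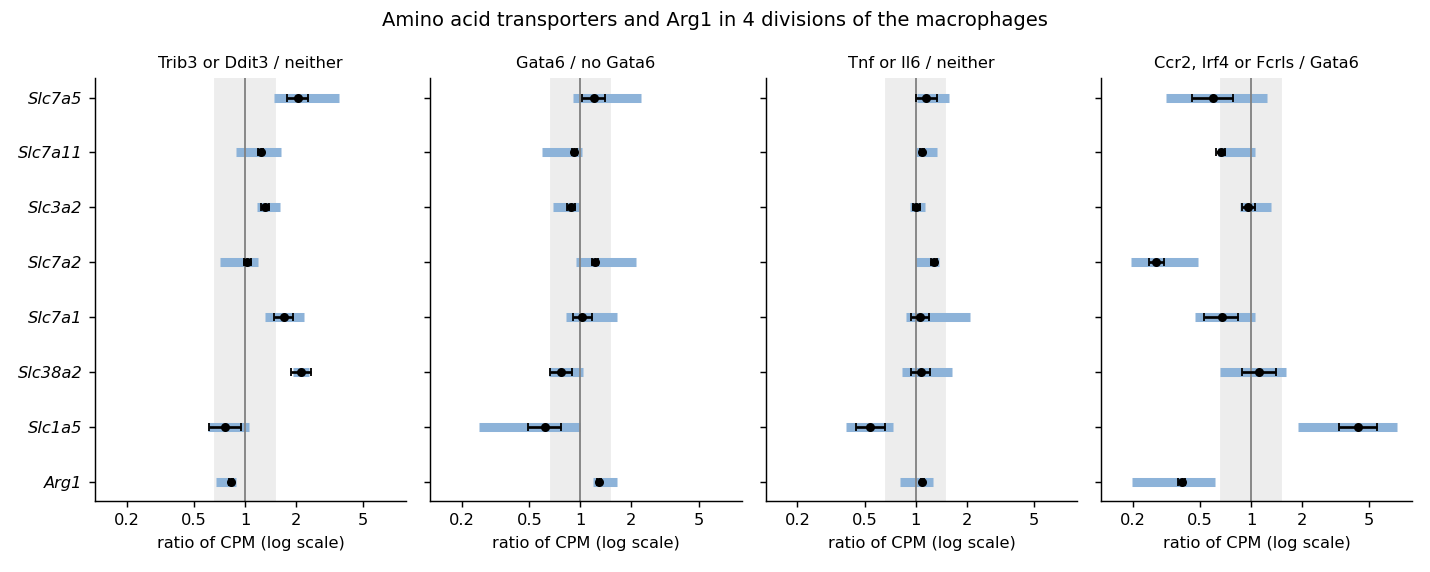
Ratio of CPM on a log axis for 8 genes in 4 divisions of the macrophages, named above each panel as the group over the group under. Points are the pool with exact 95% intervals, thick bars run from the lowest to the highest of 6 libraries, and the grey band is within 1.5-fold. Slc38a2, Slc7a5 and Slc7a1 lie right of the band in the first panel, and Slc7a2 and Arg1 lie left and Slc1a5 right of it in the last.

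Within single macrophages the genes differed in how evenly they were spread. The 10% of macrophages with the most UMIs of a gene held 34.5% of the Slc3a2 and 35.5% of the Slc7a11 UMIs, but 45.2% of the Arg1 and 47.2% of the Slc7a2 UMIs. Arg1 was found in 67.4% of macrophages (65.7–69.2%), with a median of 4 UMIs per cell and up to 131 in 1 cell. At 1500 UMIs per cell the variance of Arg1 was 6.74 times its mean, against 2.75 for Slc7a2, 2.54 for Slc7a11 and 1.25 for Slc3a2, and it was between 5.73 and 9.50 times in each library. Slc7a5, Slc38a2, Slc1a5 and Slc7a1 had a variance of 1.10 to 1.19 times the mean at this depth.

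The heavy chain gene Slc3a2 was found in a somewhat larger share of macrophages with a light chain gene than of macrophages without it. At 1500 UMIs per cell, Slc3a2 was found in 57.9% of the 202 macrophages with Slc7a5 (50.8–64.8%) and in 44.9% of those without (43.0–46.9%), and in 49.0% of the 1977 with Slc7a11 (46.7–51.2%) and 37.4% of those without (33.9–41.1%). Slc7a11 did not go with Slc7a5, at 70.3% of cells with it (63.5–76.5%) and 73.8% without (72.0–75.5%). Slc7a2 was found in 52.3% of macrophages with Arg1 (49.7–54.8%) and 32.2% without (29.5–35.0%), the largest gap of these pairs. The only macrophage with a Nos2 UMI also had Arg1.

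Over all pairs at 1500 UMIs per cell, Slc7a5, Slc38a2 and Slc7a1 went together and Slc1a5 stood apart. Macrophages with Slc38a2 had 1.89-fold the Slc7a5 (1.30–2.68) and 1.89-fold the Slc7a1 (1.39–2.54) of those without, and 0.728-fold the Arg1 (0.670–0.790), the last in all 6 libraries. Those with Slc7a5 had 1.75-fold the Slc7a1 (1.23–2.45) but 1.00-fold the Slc7a11 (0.906–1.10). Macrophages with Arg1 had 1.57-fold the Slc7a2 (1.45–1.70), above 1 in every library, and 0.322-fold the Slc1a5 (0.223–0.460), below 1 in every library. The first pair of these ratios was above 1 in 4 of 6 libraries, and single UMIs decide most of these divisions for the low genes.

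**Figure D4:**
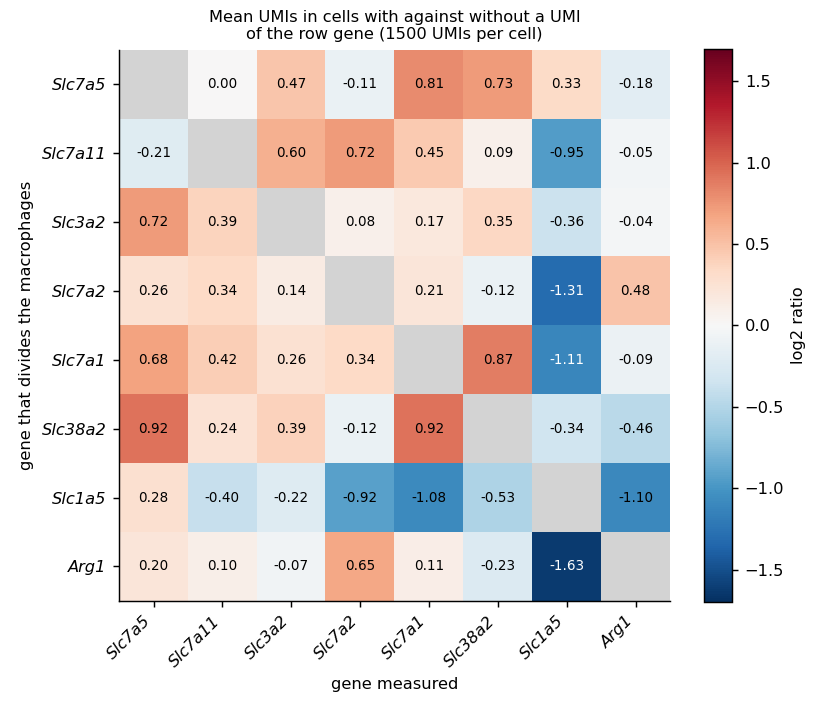
Each cell gives the log2 ratio of the mean UMIs of the column gene in macrophages with a UMI of the row gene to that in macrophages without, at 1500 UMIs per cell over 6 libraries. Slc7a5, Slc38a2 and Slc7a1 are positive with each other, from 0.68 to 0.92, and the Slc1a5 column is most negative for Arg1, at -1.63, and Slc7a2, at -1.31.

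The genes with the most like pattern were sought over 36 points, the B, T/NK and 4 macrophage groups (with or without Trib3 or Ddit3, with or without Gata6) in each library, among 5443 genes of at least 20 CPM. The points share libraries, and for genes of macrophages the correlation mostly describes the difference from lymphocytes. Arg1 was most like Fn1, Cd14 and App (r = 0.984, 0.983 and 0.982), Slc7a2 like Clec4e, C1qc and Fam20c (r = 0.987, 0.985 and 0.975), Slc7a11 like App, Alox5ap and Timp2 (r = 0.983, 0.976 and 0.975) and Slc3a2 like Clic4, Iqgap1 and Cltc (r = 0.954, 0.950 and 0.949). Slc7a5 was most like Syvn1, Mthfd2 and Hspa5 (r = 0.858, 0.848 and 0.846), Slc7a1 like Nars, Mthfd2 and Xpot (r = 0.868, 0.867 and 0.865) and Slc38a2 like Herpud1, Slc7a1 and Ddit3 (r = 0.756, 0.677 and 0.670), of which Ddit3 itself made the groups. Slc1a5 was most like Mir142hg, Gm4204 and Commd4 (r = 0.884, 0.863 and 0.853). These names depend on the measure. Ranked by Spearman's rho in place of Pearson's r, 0 of the 3 genes named for each of Arg1, Slc7a2, Slc7a11, Slc3a2 and Slc1a5 stayed among its 3 most like, 1 of 3 did for Slc7a5 and for Slc7a1, and 3 of 3 for Slc38a2.

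They also change when lymphocytes are set aside. The 24 macrophage points are 4 groups in each of 6 libraries, so differences between libraries, of unmatched genotype and time, enter r. Slc7a11 spanned 2.87-fold over the macrophage libraries, against ratios of 1.24 with Trib3 or Ddit3 and 0.922 with Gata6. Its likeness below is thus largely one between libraries and not between cells. Over the 24 macrophage points alone, a choice made after these values were seen, Slc7a11 was most like Txnrd1, Abcc1 and Gclm (r = 0.916, 0.910 and 0.903), Slc7a2 like Pnrc1, Epha4 and Sod2 (r = 0.916, 0.906 and 0.876), Slc3a2 like Sqstm1, Aars and Tug1 (r = 0.866, 0.807 and 0.793) and Arg1 like Eno1, Smim14 and Ptgs1 (r = 0.850, 0.772 and 0.751). Slc7a5 was most like Dnajb9, Hspa5 and Herpud1 (r = 0.865, 0.824 and 0.821), Slc7a1 like Eea1, Eif5 and Tcof1 (r = 0.879, 0.854 and 0.835) and Slc1a5 like Ubfd1, Mrpl57 and Cdk17 (r = 0.879, 0.876 and 0.861). Slc38a2 was most like Herpud1, Trib3 and Ddit3 (r = 0.933, 0.887 and 0.850), the last pair being the genes that made the groups. Slc7a5, Slc38a2 and Herpud1 were all higher in the groups with Trib3 or Ddit3. Their likeness over these points therefore includes that division and is not a separate result.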

How the data were processed

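The authors prepared libraries with the 10x Genomics 5′ kit, aligned reads with STAR to hg38 and mm10 through Cell Ranger (version 2.2 in the submitters' processing notes, an earlier one in the study's methods), and deposited raw UMI counts of mouse genes for 6 joined libraries, with no normalization. The annotation is not given in the sources used here.

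The filter on cells asked for 500 or more genes, log genes over log UMIs of 0.8 or more and mitochondrial counts of 10% or less (95 barcodes left out). UMIs were summed over gates and divided by the gate's total. Intervals are exact at 95% (Poisson for levels, conditional for ratios, binomial for shares, with scipy 1.17.1 and Python 3.11.15). A ratio counted as past the fold at 2 between cell types and 1.5 between macrophage groups, among features of at least 5 CPM averaged over both groups. The floor for a count of 0 was 3 counts. Tests were left out: the genes were chosen on these cells, each condition has 1 library, and cells are not replicates. Members, lists and divisions were chosen with earlier results of these data known. Thinning to 1500 UMIs left out 313 cells. Named are the members, up to 3 genes at each end of a list, and the 3 most like genes by Pearson r of log2(CPM + 1). Scaling by TMM used edgeR 4.0.16 (R 4.3.3). Doublets, by a Scrublet score of at least 0.07 (scanpy 1.11.5), were kept. The calculation of ratios was checked on simulated Poisson counts. Those counts hold no further spread between cells or libraries, so they do not show how the intervals perform on these data. Free RNA was not removed.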

Additional observations from a re-analysis of the deposited data

How the results depend on the processing

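No test was made, so a change of setting is read by whether a gene stayed past the fold. No paired analysis was possible because no result comes from a test and the columns carry no replicate number of the labels. The groups of cells compared do share libraries, so ratios within each library and their geometric mean are given instead. Of 22 ratios past the fold, 21 stayed past it with at least 1000 genes per cell, with gate minima raised by 1 UMI, with no B or T/NK cell UMI allowed in macrophages, with thinning before gating and with TMM scaling, 20 with cells in 2 gates counted in each, and 22 with at least 200 genes or without the called doublets. Leaving out each library in turn kept 125 of 132. The number of genes past 2-fold against T/NK cells was 7, and 4 with the geometric mean of the within-library ratios, which is not defined for Arg1, Slc7a2 and Slc7a11 because a T/NK library had 0 UMIs of each. Over all comparisons 18 of the 19 ratios past the fold that have this mean stayed past it. The number past 1.5-fold with Gata6 was 1, and 0 after thinning, in macrophages of 3000 to 6000 UMIs, without cells carrying Ccr2, Irf4 or Fcrls, and without library 3. The number between cells with small macrophage genes and cells with Gata6 was 5, and 8 after thinning. Leaving out libraries gave 5 to 5 (B cells), 5 to 7 (T/NK cells), 3 to 3 (Trib3 or Ddit3), 0 to 1 (Gata6), 1 to 1 (Tnf or Il6) and 4 to 6 (small macrophage genes). With a filter of 1 CPM in place of 5, or of 4 UMIs, 5.20% or 8.48% of features were past the fold upward with Trib3 or Ddit3 and 14.4% or 19.7% downward, so the background depends on this filter, with shares of 7.52% or 10.8% and 11.8% or 18.2% with Gata6 and of 4.82% or 8.17% and 12.4% or 17.5% with Tnf or Il6. The depth window, the pure lymphocyte gates and the cells without Ccr2, Irf4 and Fcrls were chosen after seeing the data. Depth limits Nos2 and the T/NK gate of library 6, which held 18 cells.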
